A study of Nomascus leucogenys with 4 samples.

Results

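The sites described here are 550 weak PU.1 peaks that were found at the same place in the lymphoblastoid lines of 2 northern white-cheeked gibbons (Nomascus leucogenys), named Ricky and Vok in the labels. Each autosomal Ricky peak was paired with the overlapping Vok peak of highest pileup, where pileup is the number of sequenced fragments stacked over the peak's summit. Pairs were selected on those measured pileups: a weak shared site has a pileup of at most 25 in both lists. The 550 sites are 10.4% of the 5294 autosomal pairs and occupy 550 different peaks in each list. Overlap and low pileup are therefore the rule that chose the sites, and are given below as a description only.

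Both lines are EBV-transformed lymphocytes, B cells immortalised with Epstein-Barr virus. For each individual, 1 library was made from chromatin precipitated with an anti-PU.1 antibody (MA5-15064) and 1 input library from chromatin with no antibody. The deposited list of each individual compares its ChIP library with its own input. No treatment and no genetic change is named in the labels, and the virus is shared by both lines. With 1 ChIP library per individual there is no replicate within an individual, so every comparison is between 2 lists and no p-value is given.

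PU.1, the product of the SPI1 gene, is an ETS-family transcription factor of B cells and myeloid cells that binds purine-rich DNA around a GGAA core. It binds promoters and enhancers, in B cells often next to IRF4 or IRF8, and the Epstein-Barr virus protein EBNA2 is known to use PU.1 to reach some of its targets. ChIP-seq peaks form a continuum from sites held by the factor in most cells to sites with a few fragments above background. A weak peak in 1 library can be a site of low occupancy or a local excess of fragments, and a second individual gives a separate reading of the same position.

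After removal of duplicates the ChIP libraries held 39743757 fragments for Ricky and 42905332 for Vok, and the inputs 31218578 and 40288483. The authors' lists hold 12399 peaks for Ricky and 7133 for Vok, of which 11362 and 6392 lie on the 25 placed autosomes. The deeper ChIP library thus gave the shorter list. The lowest pileup listed was 12 in Ricky and 14 in Vok, and a pileup of 25 over the genome-wide background level is a fold enrichment of 6.00 in Ricky and 5.33 in Vok.

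Weak peaks were common in both lists and were found again far more often in one direction than in the other. Of 5034 autosomal Ricky peaks with a pileup of at most 25, 698 overlapped a Vok peak, a share of 13.9% (exact Clopper-Pearson 95% interval 12.9 to 14.9), against 46.6% of all autosomal Ricky peaks. Of 2382 such Vok peaks, 1483 overlapped a Ricky peak, a share of 62.3% (60.3 to 64.2), against 83.0% of all autosomal Vok peaks. The longer Ricky list offers more peaks to overlap, so the shares of the lists are not measures of the same thing, and since overlap chose the sites, nothing is read from them about the sites. Intervals here and below cover counting error only, and treat peaks as independent.

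The partner of a weak peak was not always weak. In Ricky, 550 of the 698 overlapping weak peaks had a partner of at most 25 and are the weak shared sites. The other 148 had a stronger Vok partner, with a median pileup of 29 and quartiles of 27 and 31. In Vok the reverse held: 933 of the 1483 overlapping weak peaks had a Ricky partner above 25, with a median pileup of 34 and quartiles of 29 and 42. An overlapping weak Vok peak was thus more often paired with a Ricky peak above the limit than with a weak one. Of those 933 Ricky partners, 95 exceeded a pileup of 50, against 3 of the 148 Vok partners. There remained 4336 weak Ricky peaks and 899 weak Vok peaks with no partner, the unshared weak peaks used for comparison.

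The share found again rose with pileup within the weak range itself. In Ricky it was 1.85% (1.08 to 2.94) of 921 peaks with a pileup of 12 to 15. It was 10.9% (9.61 to 12.2) of 2254 peaks with 16 to 20, and 23.5% (21.5 to 25.4) of 1859 peaks with 21 to 25. These intervals do not overlap. In Vok the share was 13.2% (8.23 to 19.6) of 152 peaks with a pileup of 14 or 15, 48.3% (45.2 to 51.4) of 1013 with 16 to 20, and 80.0% (77.7 to 82.2) of 1217 with 21 to 25. Above the limit the shares continued upwards, to 55.4% for Ricky and 93.8% for Vok at 26 to 50, and to 99.0% and 98.4% above 100. The limit of 25 therefore falls on a slope and not at a step.

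**Figure D1:**
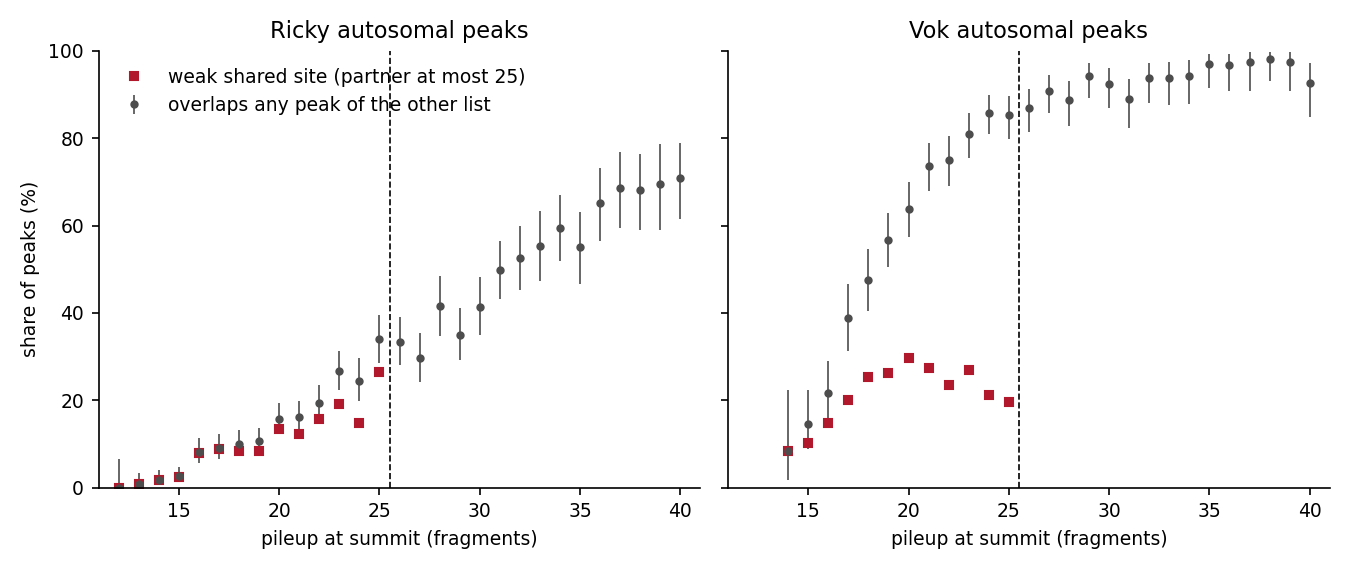
Share of autosomal peaks at each pileup level that overlap any peak of the other individual's list (grey circles, with exact 95% intervals) or belong to a weak shared site (red squares), for Ricky on the left and Vok on the right; the dashed line marks the limit of 25. At a pileup of 25 the grey share was 34.0% in Ricky and 85.3% in Vok, and the red and grey symbols part earlier in Vok, where many partners were above 25.

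Within the 550 sites the pileups filled the range that the rule allows. They ran from 13 to 25 in Ricky and from 14 to 25 in Vok, with the same quartiles of 19, 21 and 23 in both lists. Unshared weak peaks sat lower, with quartiles of 16, 19 and 21 in Ricky and of 16, 18 and 21 in Vok. Ricky had the higher pileup at 281 sites, Vok at 222, and they were equal at 47. The median Vok to Ricky ratio of pileups was 0.960, while it was 0.706 over all autosomal pairs. The limit in both lists forces this ratio towards 1 and it is not a property found in the sites.

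Other scores of the authors' peak caller follow the same description. The median fold enrichment of the sites was 4.85 in Ricky (range 2.63 to 6.00) and 4.31 in Vok (2.48 to 5.33), against 4.36 and 3.69 in unshared weak peaks. The median −log10 q was 6.93 in Ricky and 5.58 in Vok, against 5.41 and 3.55. Both scores rise with pileup, and unshared weak peaks had lower pileups. At a pileup of 21 to 25 the median −log10 q was 8.54 for Ricky sites and for unshared Ricky peaks. The fold enrichments there were 5.31 and 5.19. In Vok the same range gave −log10 q medians of 7.05 and 6.31, and fold enrichments of 4.72 and 4.51. At 16 to 20 the sites had the higher medians in both lists. At 12 to 15 in Ricky and 14 or 15 in Vok, the medians were equal. Both peaks of a site had a −log10 q of at least 3 at 479 of the 550 sites. The fold enrichment was higher in Ricky at 389 sites, more than the 281 at which Ricky had the higher pileup. Over all 5294 autosomal pairs these counts were 4663 and 4431. The background level that divides the pileup was 3.33 fragments in Ricky and 3.87 in Vok. As a guide to precision, the exact Poisson 95% interval of 25 fragments runs from 16.2 to 36.9, wider than the whole range of pileups among the sites.

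**Figure D2:**
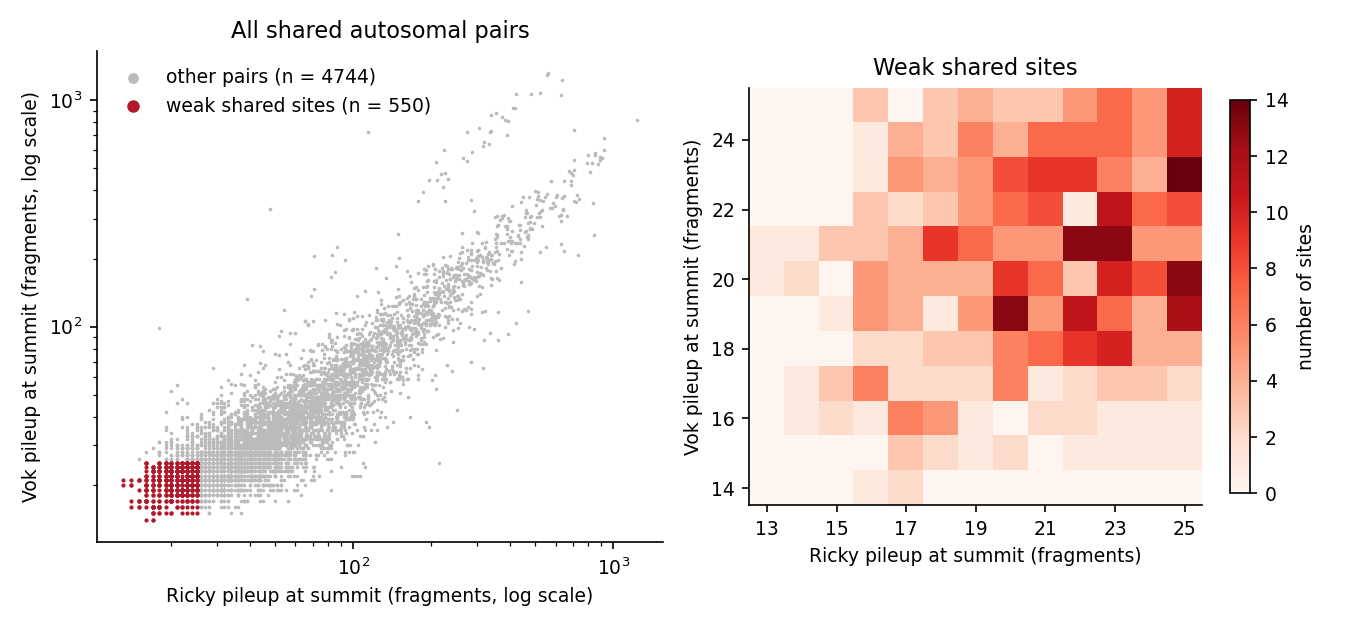
Pileup at the summit in Ricky (horizontal) and Vok (vertical) for the 5294 autosomal pairs on log axes (left, weak shared sites in red) and the number of the 550 weak shared sites at each combination of pileups (right, linear axes). The weak sites fill the low corner of a continuous cloud, and Ricky values from 13 to 25 occur with Vok values from 14 to 25.

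The 3 sites with the largest summed pileup, taken in order of position among 10 that tie at 25 in both lists, show what the top of the range looks like. The coordinates are those of the deposited lists, whose assembly no label or header names, and the intervals are those of the Ricky peak. At chr13:10781920-10782154 the pileup was 25 in Ricky and 25 in Vok, both at the background level, with fold enrichments of 6.00 and 5.33. The summits lay 5 bp apart. At chr1a:31444686-31444894 the summits lay 3 bp apart, and the Ricky fold enrichment was lower, at 4.39, with the same 25 fragments. At chr17:97911992-97912423 both peaks were 432 bp wide and the summits were 58 bp apart. Equal pileups thus came with close summits at 2 of these 3 sites and with a wider spacing at the third.

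At the other end of the range, 2 sites had a summed pileup of 30 and 5 more tied at 31, of which the first by position is given. The site at chr11:63750048-63750238 had a pileup of 14 in Ricky and 16 in Vok, fold enrichments of 3.46 and 3.49, and summits 32 bp apart. At chr9:67436711-67436933 the pileups were 16 and 14, but the peaks overlapped by only 48 bp and their summits were 244 bp apart. At chr10:1309647-1309979 the pileups were 17 and 14, the overlap 64 bp and the summit distance 79 bp. The peaks of the first site overlapped over 60.9% of their union, and those of the others over 13.2% and 13.4%.

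The rule asked for an overlap of 1 bp and made no use of where the summits lie inside the peaks, although peaks this narrow that overlap cannot have distant summits. The summits of the 550 sites lay a median of 26 bp apart (95% interval of the median 23 to 28), with quartiles of 9.25 and 52 bp. They were at the same base at 5 sites, within 10 bp at 147 sites (26.7%, interval 23.1 to 30.6), within 50 bp at 405 sites (73.6%, 69.7 to 77.3) and within 100 bp at 492 sites (89.5%). Only 15 sites had summits more than 200 bp apart. At most sites the summits of both individuals thus fell within a stretch much shorter than the peak. How close together overlap alone would place them was not tested. The displacement went either way: the Vok summit had the higher coordinate at 286 sites and the lower at 259.

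Summits were nevertheless farther apart than in stronger pairs. The median distance was 12 bp (11 to 12) for the 2109 pairs whose larger pileup was 26 to 50, 6 bp (6 to 7) for the 1474 pairs at 51 to 100, and 2 bp (2 to 3) for the 1161 pairs above 100. None of these intervals overlaps that of the weak sites. The share within 50 bp was 92.6%, 98.1% and 98.4% in the same classes, against 73.6% in the weak sites. The longest distances were not confined to weak sites: 419 bp was the maximum there, and 1110 bp among pairs above 100.

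**Figure D3:**
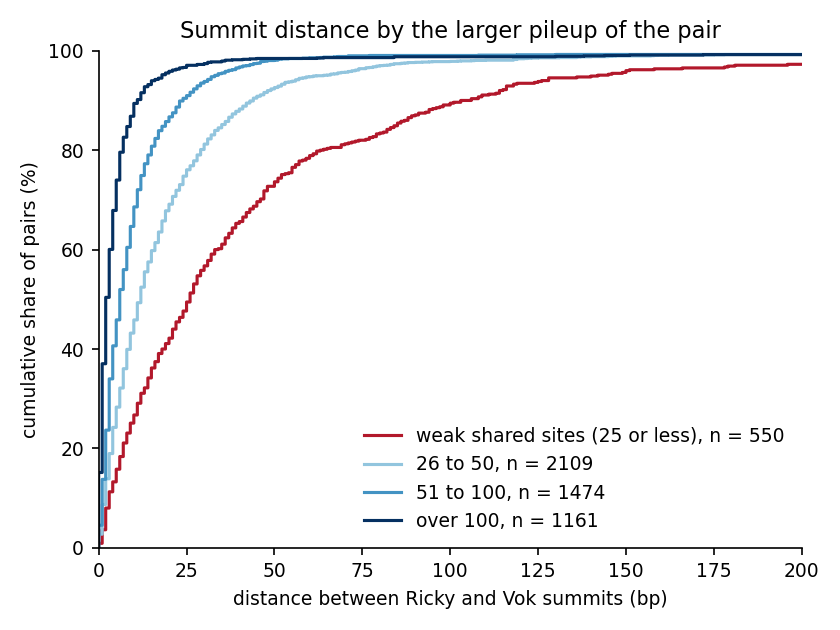
Cumulative share of pairs (vertical, percent) against the distance in bp between the Ricky and the Vok summit (horizontal, shown to 200 bp), with pairs grouped by the larger of their pileups. The weak shared sites reach 73.6% at 50 bp, while the stronger classes lie between 92.6% and 98.4% there.

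The same gradient ran through the weak sites. For the 93 sites whose pileups sum to 30 to 37 the median distance was 59 bp (44 to 72), and 44.1% (33.8 to 54.8) had summits within 50 bp. It was 29 bp (25 to 34) for 163 sites with a sum of 38 to 41, and 21 bp (16 to 25) for 191 sites with 42 to 45. For the 103 sites with a sum of 46 to 50 it was 16 bp (11 to 23), and 84.5% (76.0 to 90.9) lay within 50 bp. The lowest and the highest of these classes do not overlap in either measure. Peak width did not go with the distance in this way: the median was 22 bp for the 170 sites whose narrower peak was under 200 bp and 27.5 bp for the other 380.

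Nothing broke at the limit of 25. The 113 sites whose larger pileup was exactly 25 had a median summit distance of 16 bp, with 94 of them (83.2%) within 50 bp. The 109 pairs just outside, with a larger pileup of 26, also had a median of 16 bp, with 96 (88.1%) within 50 bp. Their median widths were 276 bp in Ricky and 244 bp in Vok just inside, and 273 and 240 bp just outside.

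The peaks of a site overlapped over a shorter stretch than those of stronger pairs, and over a somewhat smaller part of their union. The overlap ran from 26 to 601 bp with a median of 194 bp, against medians of 249, 347 and 523 bp in the classes of rising pileup. It covered a median of 68.3% of their union, against 70.8%, 73.7% and 80.9% in the same classes. At 503 sites (91.5%) each peak was covered by the other over at least 50% of its length. Both summits lay inside both peaks at 510 sites (92.7%), and at 6 sites neither summit lay inside the other peak. Among stronger pairs both summits lay inside both peaks at 99.2% to 99.7%.

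The sites with the largest summit distances show how the exceptions arise in the coordinates. At chr19:30013227-30013419, with 419 bp between summits, a 193 bp Ricky peak lay within a 624 bp Vok peak whose summit was near the end with the lower coordinate. Its fold enrichments, 2.66 and 2.49, were among the lowest of all sites although its pileups were 22 and 24. At chr14:46749687-46750033, with pileups of 13 and 21, the summits were 367 bp apart and the peaks overlapped by 68 bp. At chr13:57056313-57056524, with pileups of 17 and 16, the distance was 358 bp and the overlap 26 bp, the smallest of all sites. The last 2 are pairs that meet at their edges.

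Width differed between shared and unshared weak peaks in Ricky. The Ricky peaks of the sites had a median width of 252 bp (242 to 258), with quartiles of 213 and 304 bp and a range of 180 to 790 bp. Unshared weak Ricky peaks had a median of 226 bp (224 to 228). The difference of the medians was 26 bp, with an interval of 15.8 to 32.3. A wider peak overlaps another more easily, so the rule itself favours wide peaks. Its part in this difference was not tested. The 148 weak Ricky peaks with a Vok partner above 25 were about as wide as the sites, with a median of 252.5 bp (234 to 264).

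In Vok the peaks of the sites had a median width of 228 bp (223 to 235), with quartiles of 204 and 270 bp and a range of 184 to 624 bp, against 223 bp (218 to 226) for unshared weak Vok peaks. The difference of 5 bp had an interval of −0.831 to 13.6, which includes 0; under 4 of 10 other settings the interval lay above 0, with differences of 5.5 to 17 bp. Because pileup and width rise together, the comparison was repeated at equal pileup. At each of the 10 levels with enough peaks, from 16 to 25, the Ricky peaks of the sites had the higher median, and after weighting the unshared peaks to the pileups of the sites the difference was 16 bp. In Vok the sites had the higher median at 4 of 11 levels and the weighted difference was 0 bp. The lists were not compared with each other by a test.

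**Figure D4:**
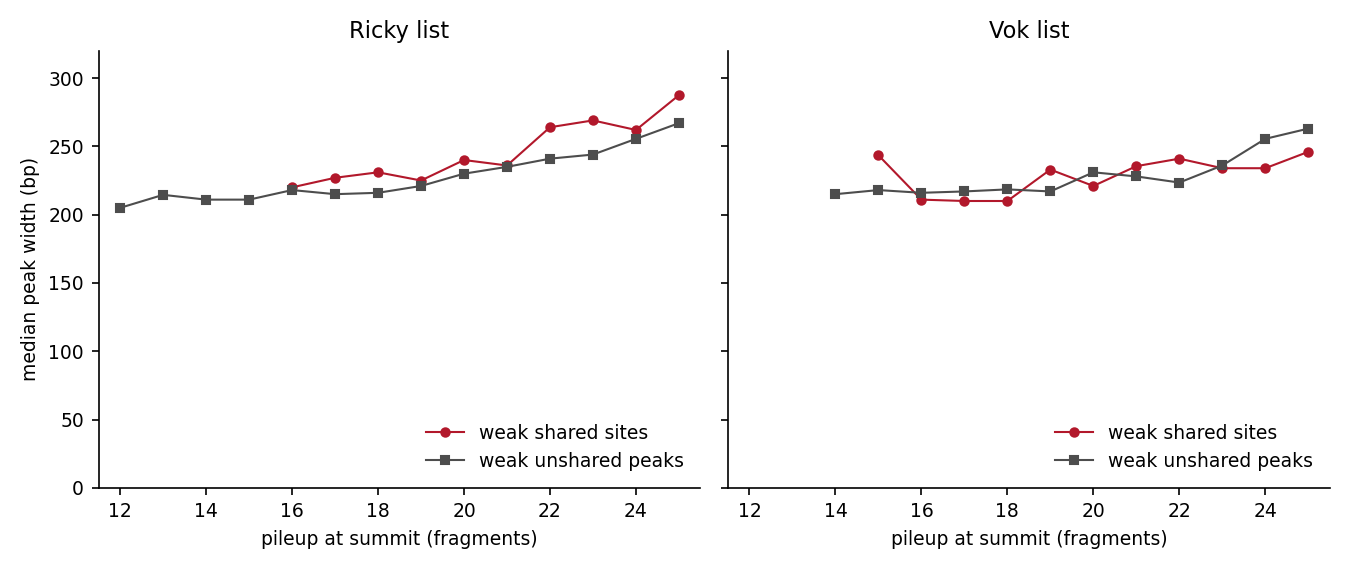
Median peak width in bp at each pileup level for weak shared sites (red circles) and weak unshared peaks (grey squares), in the Ricky list (left) and the Vok list (right), for levels with at least 10 peaks. Ricky medians of the sites lie above those of unshared peaks at all 10 levels where both are shown, and Vok medians do so at 4 of 11.

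The same site was often wider in one individual. The Ricky peak was the wider at 344 sites, the Vok peak at 199, and they were equal at 7. Over all 5294 autosomal pairs the Ricky peak was the wider at 4220 and the Vok peak at 1048, so wider Ricky peaks are not particular to the sites. The site with the widest Ricky peak, chr11:54693004-54693793, was 790 bp wide in Ricky and 302 bp in Vok, with pileups of 22 and 21 and summits 41 bp apart. At chr6:119838467-119839177 the widths were 711 and 254 bp, with pileups of 25 and 24 and summits 9 bp apart. At chr12:28071631-28072327 both peaks were broad, 697 and 601 bp, and the summits were 280 bp apart. These 3 sites were picked by their Ricky width. At 2 of them the Vok peak was much narrower than the Ricky peak, though still wider than the 228 bp median of Vok site peaks.

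Most weak shared sites stood far from any strong PU.1 peak. A strong peak is one with a pileup of at least 100, of which there were 1170 in Ricky and 638 in Vok on the autosomes. In Ricky the median distance from the summit of a site to that of the nearest strong peak was 661 kb (564 to 756), with quartiles of 245 and 1545 kb. In Vok it was 1147 kb (1022 to 1315), with quartiles of 408 and 3078 kb. The Vok list has fewer strong peaks at the same limit, so the lists differ in this distance by construction.

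Unshared weak peaks lay about as far away. Their median distance was 655 kb (604 to 695) in Ricky and 1286 kb (1165 to 1473) in Vok, and in each list the interval overlaps that of the sites. Close neighbourhoods were counted as summits within 50 kb of a strong peak. In Ricky 50 of 550 sites (9.09%, 6.82 to 11.8) and 451 of 4336 unshared peaks (10.4%, 9.51 to 11.3) met this, a difference of −1.31 percentage points with an interval of −3.64 to 1.52. In Vok 38 of 550 sites (6.91%, 4.94 to 9.36) and 35 of 899 unshared peaks (3.89%, 2.73 to 5.37) did, a difference of 3.02 points with an interval of 0.663 to 5.68. The Vok interval lies above 0 and the Ricky interval includes it. The Vok call was not stable: of 16 other settings with an interval, it lay above 0 under 7 and included 0 under 9, with the difference positive in all 16. In Ricky the interval included 0 under 15 of 17 other settings and lay above 0 under 2, and the sign of the difference varied. Weak Vok peaks with a Ricky partner above 25 met the 50 kb limit about as often as the Vok site peaks, at 63 of 933 (6.75%, 5.23 to 8.56). Over all autosomal peaks, which include the strong peaks themselves, the share was 20.8% in Ricky and 16.5% in Vok.

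The Vok difference was not uniform over pileup. Among Vok peaks with a pileup of 16 to 20, 22 of 244 site peaks (9.02%) and 20 of 524 unshared peaks (3.82%) lay within 50 kb of a strong peak. Among those with 21 to 25 the counts were 15 of 291 (5.15%) and 13 of 243 (5.35%). It also moved when all peaks above the genome-wide background level were left out. The Vok difference was then 0.419 points, with an interval of −1.63 to 3.50. A remaining peak whose partner was left out counted there as unshared, so the comparison group changed as well. The part of background in the difference was not tested. Within 10 kb the counts were 17 sites (3.09%) against 9 unshared peaks (1.00%) in Vok, and 21 (3.82%) against 145 (3.34%) in Ricky. Over all autosomal peaks, strong ones included, the share within 10 kb was 12.3% in Vok and 13.7% in Ricky.

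**Figure D5:**
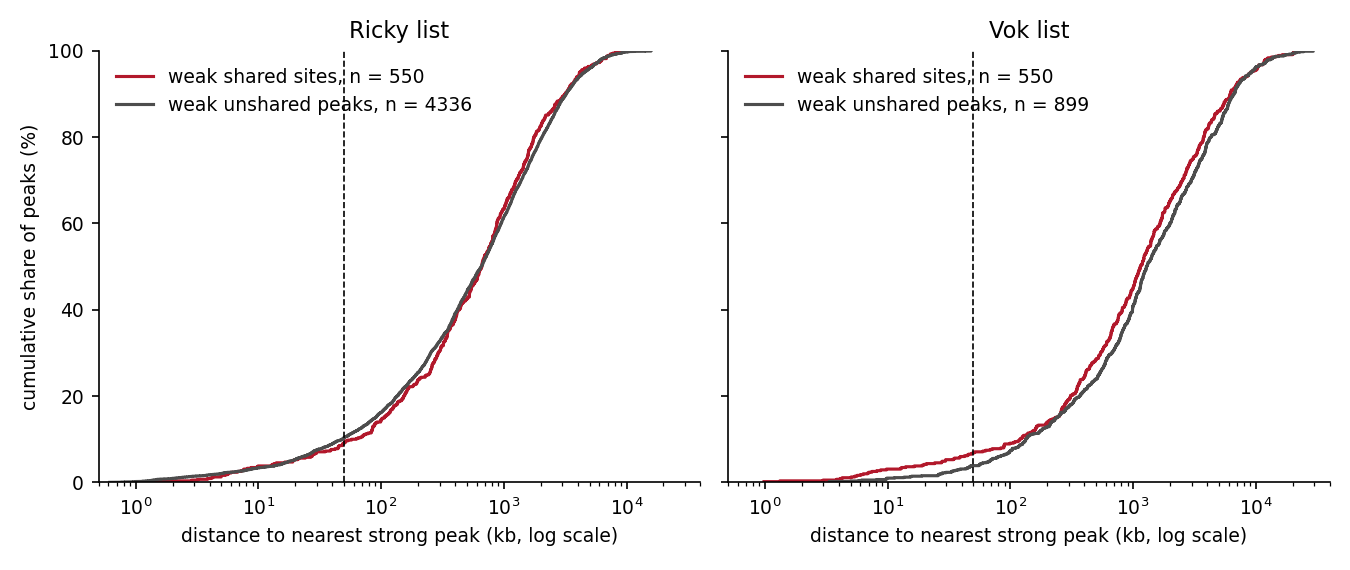
Cumulative share of peaks (vertical, percent) against the distance in kb from the summit to the nearest summit with a pileup of at least 100 in the same list (horizontal, log scale), for weak shared sites (red) and weak unshared peaks (grey); the dashed line marks 50 kb. The curves nearly coincide in Ricky, and in Vok the sites lie above unshared peaks at 50 kb, 6.91% against 3.89%.

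The sites close to a strong peak were largely the same in both lists, which is partly built in. The rule puts a site at nearly the same place in both lists. Among the 1161 pairs with a larger pileup above 100, Ricky had the higher pileup at 1083. In all, 51 sites were within 50 kb of a strong peak in at least one list: 37 in both, 13 in Ricky only and 1 in Vok only. The nearest of all, chr22a:10661717-10661918, had pileups of 19 and 22 and lay 1044 bp from the summit of a Ricky peak with a pileup of 353, at chr22a:10662394-10663244, which had a pileup of 224 in Vok. At chr19:27984581-27984884, with 19 and 23, the strong peak was 1371 bp away and had pileups of 254 and 193. At chr2:82892007-82892477, with 23 and 20, the strong peak at 2863 bp had 285 and 197. In these 3 cases a weak shared site lay beside a peak that was strong in both individuals, and the summits of the weak site were 60, 52 and 119 bp apart.

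Other sites had no strong peak for megabases around. The farthest by the Ricky list was chr9:48742609-48742796, with pileups of 20 and 19, at 9.03 Mb from a strong peak in Ricky and 12.5 Mb in Vok. It was followed by chr22a:105747389-105747692, with 23 and 20, at 8.39 and 9.01 Mb, and by chr3:59944922-59945134, with 24 and 22, at 8.14 and 14.5 Mb. The summits of these sites were 98, 54 and 12 bp apart, against 60, 52 and 119 bp at the sites nearest to a strong peak.

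Distances were also taken to the nearest other peak of any strength, which by definition cannot exceed the distance to the nearest strong peak. The nearest other peak lay at a median of 44.2 kb in Ricky and 85.1 kb in Vok, against 53.3 and 92.6 kb for unshared weak peaks and 41.2 and 67.2 kb for all autosomal peaks. Within 10 kb of another peak were 126 sites in Ricky (22.9%, 19.5 to 26.7) and 849 unshared peaks (19.6%, 18.4 to 20.8). In Vok these counts were 74 (13.5%) and 113 (12.6%). The share over all autosomal peaks was 23.5% in Ricky and 17.7% in Vok. Counting only other peaks that are themselves shared, 186 Vok site peaks (33.8%, 29.9 to 37.9) and 237 unshared Vok peaks (26.4%, 23.5 to 29.4) had one within 50 kb. In Ricky the numbers were 186 (33.8%) and 1340 (30.9%, 29.5 to 32.3). Between sites and unshared peaks the intervals are separate in Vok and overlap in Ricky. Over all autosomal peaks the share was higher than at the sites, 38.7% in Vok and 36.6% in Ricky.

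The spacing between weak shared sites depends on how many there are, and is given as a description only. Whether they lay closer together or farther apart than sites placed at random was not tested. The nearest other site was a median of 1291 kb away, with quartiles of 418 and 2879 kb. There were 37 sites with another within 50 kb and 6 with another within 10 kb, the closest at 2804 bp.

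The sites were spread over all 25 autosomes, from 7 on chr24 to 37 on chr22a. They made up 6.67% of the shared pairs on chr14 and 13.2% on chr22a, the lowest and highest shares, around 10.4% overall. The share of weak Ricky peaks found in Vok ran from 7.44% on chr20 to 17.1% on chr22a, and 1 of the 25 intervals left out the overall 13.9%. For weak Vok peaks it ran from 51.8% on chr3 to 72.8% on chr19, and 2 of 25 intervals left out the overall 62.3%.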

How the data were processed

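Chromatin of 2 gibbon lines was precipitated with an anti-PU.1 antibody, and 1 ChIP and 1 input library per individual were sequenced. MACS 2.1.1.20160309 called the peaks on paired fragments, per the file headers, with each ChIP against its own input, at a q-value of 0.05, a mapping quality of 30, at most 1 duplicate and an effective genome of 2.7 Gb. Per the file headers the alignments came from bwa, while the submitters' processing notes list Bowtie2. Individuals were not pooled. The authors deposited for each peak the pileup (coverage signal) at the summit, a fold enrichment ratio, and −log10 p and −log10 q values. Pileups were whole numbers in 100% of peaks. A mapping quality limit of 30 leaves out fragments whose place in the genome is ambiguous; how far this touches repeats was not analysed here. No label or header names the assembly, and gene context and motifs were not analysed here.

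From these values, peaks on placed autosomes were paired by an overlap of at least 1 bp, keeping the Vok peak of highest pileup. Sites with pileups of at most 25 in both lists were kept and set beside weak peaks with no overlap. The background at a summit was (pileup + 1)/fold enrichment − 1, and its common lowest value (within 0.01) was taken as the genome-wide level. Shares carry exact Clopper-Pearson 95% intervals, medians order-statistic intervals, and differences intervals combined from those of both groups. Sites named in the text are the first 3 by summed pileup (highest and lowest), by distance to a strong Ricky peak (nearest and farthest), by Ricky width and by summit distance. The sites and comparisons were chosen with earlier results of these data known. The code was tested on simulated peak lists. Computation used Python 3.11.15 with SciPy 1.17.1 for intervals, NumPy 2.4.6 and pandas 2.3.3 for the pairing and matplotlib 3.10.9 for plots. Alternatives covered the pileup limit, the overlap rule, the peak threshold, the background, the sequences included and the definition of a strong peak.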

Additional observations from a re-analysis of the deposited data

Results flagged for a closer look

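Nearness to a strong peak had opposite signs in the lists, although the Ricky interval includes 0. The share of weak shared sites within 50 kb of a strong peak, minus that of unshared weak peaks, was −1.31 percentage points in Ricky and 3.02 points in Vok. The difference between the individuals was not tested, since each has 1 ChIP library. With the Ricky strong list cut to the length of the Vok list the Ricky difference was 0.913 points, the same sign as in Vok, and with strong peaks at a pileup of 200 it was 1.78 points. Measured against the strong peaks of the Ricky list for both individuals, the Vok shares were 9.09% of sites and 6.90% of unshared peaks.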

How the results depend on the processing

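With a pileup limit of 20 there were 123 sites, a median summit distance of 42 bp, 56.9% within 50 bp, and shares found again of 8.25% of weak Ricky and 43.7% of weak Vok peaks. With a limit of 30 there were 1039 sites, 20 bp, 81.0%, 18.3% and 69.7%, and the width differences were 33 bp in Ricky and 9 bp in Vok. With weakness defined as a fold enrichment of at most 5, the median distance was 29 bp, 67.9% lay within 50 bp, and 59.9% of weak Vok peaks were found again. The width differences were then 35 bp in Ricky and 17 bp in Vok, and the differences within 50 kb of a strong peak 8.69 and 11.2 points. That rule admits pairs of high pileup over high background: 147 of its 436 pairs exceeded a pileup of 25 in a list, and 48 held a strong peak. With the Vok limit at 28, which takes in a slightly larger share of its list than the 44.3% that 25 takes in of the Ricky list, 67.3% of weak Vok peaks were found again and the Vok width difference was 9 bp. A reciprocal overlap of 50% gave 12.75% in Ricky and 54.1% in Vok, and a Vok width difference of 5.5 bp. The interval of the Vok width difference no longer included 0 at the limit of 30, under the fold enrichment rule, at the Vok limit of 28 and with the reciprocal overlap. Summits within 100 bp gave 12.6% and 58.4%, a median of 22 bp and 82.3% within 50 bp. Restricting both lists to a −log10 q of 3 or more gave 77.45% within 50 bp and 70.9% of weak Vok peaks found again. With chromosome X and unplaced sequences included, the Vok share was 58.15%. At the genome-wide background level only, there were 264 sites, shares of 9.13% and 41.2%, and a Vok difference near strong peaks of 0.419 points. Peaks whose partner was left out counted there as unshared, which lowers the shares.

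The Vok difference within 50 kb of a strong peak, 3.02 points, had an interval that included 0 at that background level and under 8 other settings. It was 1.52 points at a pileup limit of 20, 2.19 with a reciprocal overlap, 2.17 with summits within 100 bp and 2.47 at a −log10 q of 3. It was 1.81 with strong peaks at a pileup of 50, 1.46 with 200, 2.19 against the strong peaks of Ricky and 4.63 within 500 kb.

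The Ricky difference near strong peaks, whose interval includes 0 at −1.31 points, was 1.78 points with strong peaks defined at a pileup of 200 (interval 0.00094 to 4.13), 0.474 points within 10 kb, and 0.913 points with the Ricky strong list cut to 638 peaks. Over all alternatives 63 values stayed within the interval of the value reported, or within 1.5 times for the number of sites, with no call changed. These include pairing from the Vok list, which gave identical values, and the weighted differences, which have no interval. Of the others, 31 moved beyond those limits. In Vok, 9 differences near strong peaks took an interval that included 0, and 4 width differences took one above 0. The cause of the other changes was not tested except where stated. Pairing from the Vok list gave the same 550 sites. Distances within 500 kb and the shorter Ricky strong list (pileup of at least 155) were added after seeing the data. The motif alternatives were not run. Leaving out either individual leaves no pairs. A pileup of 25 or less limits the precision of every value per site.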

Other observations

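In Vok weak shared peaks sat at the genome-wide background level more often than unshared ones, and in Ricky the intervals overlapped. In Vok 399 of 550 site peaks (72.5%, 68.6 to 76.2) and 571 of 899 unshared peaks (63.5%, 60.3 to 66.7) sat at that level, and the remainder above it. In Ricky the numbers were 367 of 550 (66.7%, 62.6 to 70.7) and 3070 of 4336 (70.8%, 69.4 to 72.2). Weak peaks with a partner above 25 were at that level in 72.8% (69.8 to 75.6) in Vok, close to the sites. In Ricky their share was 60.1% (51.8 to 68.1). Over all autosomal peaks the share was 63.5% in Vok and 63.3% in Ricky. The difference between the lists was not tested. Both peaks of a site were at that level at 264 sites (48.0%) and neither at 48. The median summit distance was 26 bp for those 264 sites and 25.5 bp for the other 286. Among Vok peaks with a pileup of 21 to 25, 71.8% of site peaks and 49.8% of unshared peaks were at the background level.

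In the Vok list the summit lay nearer to the centre of the peak at the sites than in unshared weak peaks, but not nearer than in all peaks. Its median offset from the centre was 26.5 bp (24 to 30.0) in the Vok peaks of the sites and 38.5 bp (35 to 41.5) in unshared weak Vok peaks, intervals that do not overlap. Weak Vok peaks with a partner above 25 had a median offset of 21 bp (19 to 23), and all autosomal Vok peaks one of 22 bp. In Ricky the offsets of site peaks and unshared weak peaks were 24.75 bp (22 to 28.5) and 26.5 bp (25.5 to 27.5), which overlap.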
